A study of Homo sapiens with 6 samples.

Results

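Double-strand breaks and DNA crosslinks that arise while chromosomes are copied are repaired from the sister chromatid by homologous recombination, and the Fanconi anaemia pathway prepares crosslinked DNA for that repair. The transcripts of 32 genes of these pathways were followed in 22RV1, a long-established line of human prostate cancer cells. The genes were chosen by symbol, with no measured value in the rule, though with earlier results of these data known. All 32 had a row among the 17811 genes listed, each with reads in all 6 libraries, and all 32 passed the filter on low values. The lowest value of any of them was 44.9 normalized reads, for FANCB.

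Homologous recombination begins when an end is resected to single-stranded DNA. BRCA1 and BARD1 promote that step, and PALB2 and BRCA2 then load a recombinase, a strand-exchange protein, on the exposed strand with the help of its paralogs. At a crosslink, the Fanconi core complex attaches ubiquitin to FANCD2 and FANCI, which recruit nucleases. The kinases ATM and ATR signal the damage to the cell cycle. Most of these genes are known to be transcribed chiefly in cells that are copying their DNA, and germline loss of several of them, BRCA2 and ATM among them, predisposes to prostate cancer.

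Poly(A) RNA was sequenced in 3 groups of 2 libraries. One group stably expressed a hairpin labelled shIMPA1, after inositol monophosphatase 1, and another a hairpin labelled shIMPDH2, after IMP dehydrogenase 2, which commits IMP to guanine nucleotides. The control group stably expressed shLuc, named after luciferase. No other treatment is named, and all groups grew in RPMI-1640 medium with 10% serum (FBS). The labels name 1 hairpin target per group and number its libraries 1 and 2, without saying whether the number marks a culture, a stable line or a hairpin, and give no hairpin sequence; a p-value here therefore reflects the spread between libraries alone, and that spread may be technical.

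The libraries held 20828900 to 27773294 reads in listed genes. IMPA1 had 957 and 1101 normalized reads in shIMPA1, 1795 and 1842 in shIMPDH2, and 1621 and 1331 in shLuc. The shIMPA1 hairpin thus left most of the transcript of its target in place (log2 fold change -0.52, SE 0.13, limma adjusted p = 0.0145). Its call was lost without shLuc replicate 1. IMPDH2 had 2932 and 3166 normalized reads in shIMPDH2, 4435 and 5055 in shIMPA1, and 4270 and 5032 in shLuc (shIMPDH2 over shLuc -0.61, SE 0.13, limma adjusted p = 0.00999). That call was lost without shLuc replicate 2 or without either shIMPDH2 library. Of 11 prostate and epithelial markers, all detected in all 6 libraries, 4 fell and 2 rose in shIMPA1, from -2.35 to 1.55 on the log2 scale over the list, and 2 fell and 5 rose in shIMPDH2. Together they gave 93959 and 92983 normalized reads in shIMPA1, 103679 and 109810 in shIMPDH2, and 123709 and 120876 in shLuc. Of 10 markers of other cell types, PTPRC, PECAM1 and COL1A2 had no row among the listed genes, DCN stayed under the filter, and the 6 tested together gave 506 and 390 normalized reads in shIMPA1, 403 and 389 in shIMPDH2, and 1386 and 1527 in shLuc. Of these 6, 5 were lower in shIMPA1 and 5 in shIMPDH2. Among all 17742 genes tested, 2882 fell and 2479 rose in shIMPA1, and 1623 fell and 1395 rose in shIMPDH2. The part of either marker list in the results below was not tested.

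The shIMPA1 cells had less of most of these transcripts. Of the 32 genes, 25 fell in shIMPA1 relative to shLuc and 0 rose, by limma on log2(value + 1) over all 17742 genes tested with an adjusted p under 0.05; of all genes tested, 16.2% fell by the same rule. The median log2 fold change was -0.89 over the 32 genes and 0.02 over all genes tested. The fall was more than 2-fold for 15 of the 25. Both shIMPA1 libraries lay below both shLuc libraries for 27 of the 32 genes, as they did for 32.7% of all genes tested. The 7 genes that did not pass were PALB2, RAD51B, RAD51D, RBBP8, ATM, ATR and FANCF.

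**Figure D1:**
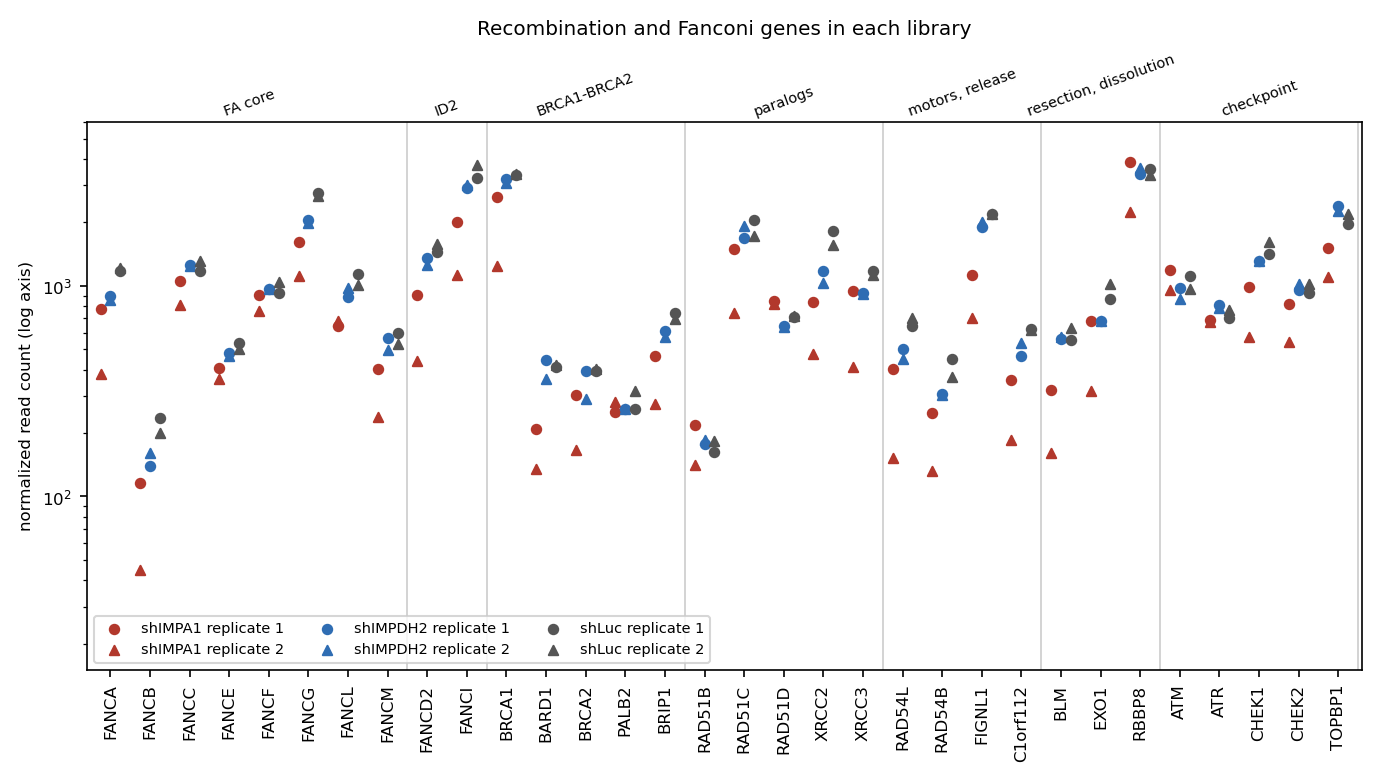
Normalized read counts (log axis) of the 32 genes in each of the 6 libraries, grouped by role; circles are replicate 1 and triangles replicate 2, in red for shIMPA1, blue for shIMPDH2 and grey for shLuc. The red triangles are the lowest of the 6 points for 28 of the 32 genes, and the blue points lie near the grey ones for most genes.

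The shIMPA1 libraries were far apart for these genes. Replicate 2 was lower than replicate 1 for 30 of the 32 and was the lowest of all 6 libraries for 28. The absolute log2 difference between the 2 libraries had a median of 0.77 over the 32 genes in shIMPA1, against 0.24 over all genes tested. In shIMPDH2 the same medians were 0.07 and 0.15, and in shLuc 0.15 and 0.15. The median log2 fold change of the 32 genes was -1.36 without shIMPA1 replicate 1 and -0.48 without shIMPA1 replicate 2. In bulk RNA, fewer cells that express a gene and less of its RNA per cell cannot be told apart.

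The number of falls was lowest without a shLuc library. It was 27 without shIMPA1 replicate 1, beside 23.9% of all genes tested, and 21 without shIMPA1 replicate 2, beside 16.1%. Without shLuc replicate 1 it was 11, beside 6.74% of all genes tested, and without shLuc replicate 2 it was again 11, beside 6.43% of all genes tested. A fit with no mean-variance trend gave 12 falls, beside 10.8% of all genes tested. The call held in every one of the 6 fits without a library for 8 genes, which were BARD1, BLM, C1orf112, FANCG, FANCI, FANCL, FIGNL1 and XRCC2. The genes that lost their call without either shLuc library were FANCA, FANCC, FANCE, FANCM, BRCA1, BRCA2, RAD51C, XRCC3, RAD54L, EXO1 and CHEK2. FANCB, BRIP1 and RAD54B lost it without shLuc replicate 1 alone, and FANCD2, CHEK1 and TOPBP1 without shLuc replicate 2 alone. edgeR on the recovered reads called the same 25 genes, beside falls in 16.4% of all genes tested, and DESeq2 called 21 of them, beside 14.2%.

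**Figure D2:**
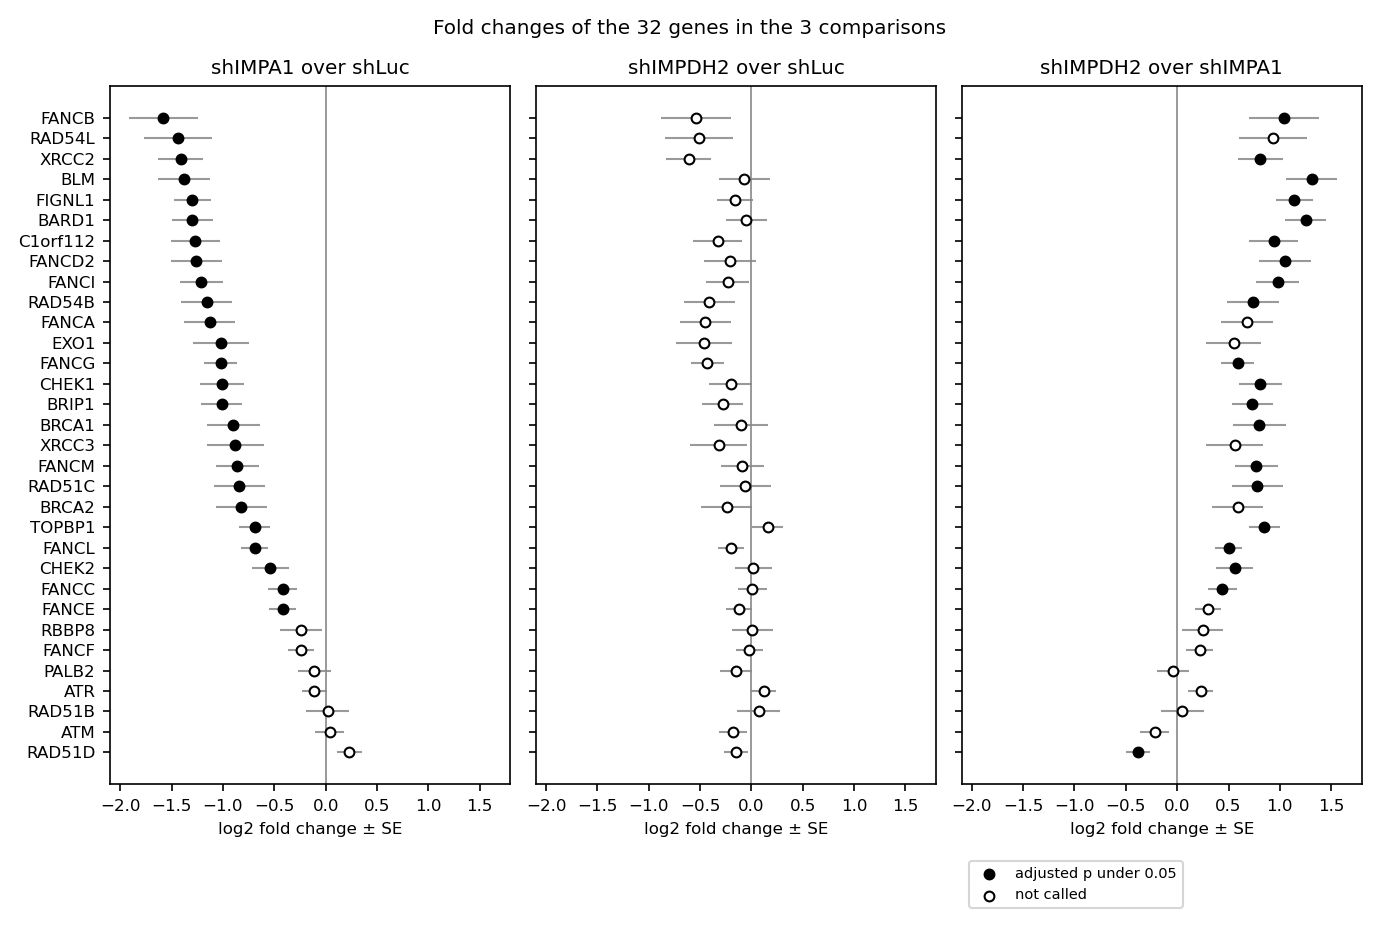
Log2 fold changes with limma's SE for the 32 genes, ordered by the change in shIMPA1, for shIMPA1 over shLuc, shIMPDH2 over shLuc and shIMPDH2 over shIMPA1; filled points passed an adjusted p of 0.05 and open points did not. In shIMPA1 over shLuc 25 points are filled, from -1.58 for FANCB to -0.42 for FANCC and FANCE; in shIMPDH2 over shLuc none is.

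The fall was common to much of the Fanconi core complex, the multi-subunit ubiquitin ligase of the pathway. Of its 8 subunits among the chosen genes, 7 passed the test. FANCB, a subunit of its catalytic module encoded on the X chromosome, had 116 and 44.9 normalized reads in shIMPA1, 139 and 161 in shIMPDH2, and 235 and 201 in shLuc. Its mean was 80.3 ± 50.2 in shIMPA1 and 218 ± 23.8 in shLuc (SD, n = 2 each), a log2 fold change of -1.58 (SE 0.34, limma adjusted p = 0.00569). The groups did not overlap, but shIMPA1 replicate 1 was 1.88-fold below the shLuc mean and replicate 2 was 4.86-fold below it.

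FANCG, a scaffold subunit, had 53.8 TPM in shIMPA1 and 99.6 TPM in shLuc. In shLuc it was the most abundant of the 32 in this unit, which corrects for annotated exon length and depth. It had 1611 and 1112 normalized reads in shIMPA1, 2061 and 1978 in shIMPDH2, and 2761 and 2682 in shLuc, so that both knockdown groups lay wholly below shLuc. The log2 fold change in shIMPA1 was -1.02 (SE 0.16, limma adjusted p = 0.000935). FANCL, the subunit that carries the ubiquitin ligase activity, had 645 and 679 normalized reads in shIMPA1, 890 and 982 in shIMPDH2, and 1140 and 1007 in shLuc. It was 1 of only 2 genes for which the second shIMPA1 library was not the lower one, and it fell by 0.69 on the log2 scale (SE 0.13, limma adjusted p = 0.00231).

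FANCA, the subunit most often mutated in Fanconi anaemia, had 778 and 380 normalized reads in shIMPA1, 896 and 853 in shIMPDH2, and 1174 and 1216 in shLuc, and fell by 1.13 on the log2 scale in shIMPA1 (SE 0.25, limma adjusted p = 0.00635). FANCM, the translocase that brings the core complex to DNA, fell by 0.86. FANCC and FANCE, partners within the complex, each fell by 0.42 on the log2 scale; both calls were lost without shIMPA1 replicate 2 and without either shLuc or either shIMPDH2 library. FANCF, an adaptor subunit, had 907 and 761 normalized reads in shIMPA1, 966 and 967 in shIMPDH2, and 926 and 1039 in shLuc, and did not pass (log2 fold change -0.24, SE 0.13, limma adjusted p = 0.197). The chosen subunits of the core complex thus held falls from 0.42 to 1.58 on the log2 scale beside 1 that was not called. Further subunits were among the other Fanconi and crosslink genes described below, of which only UBE2T and RFWD3 fell in shIMPA1.

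The substrates of that ligase moved in parallel. FANCD2 had 908 and 440 normalized reads in shIMPA1, 1352 and 1263 in shIMPDH2, and 1445 and 1586 in shLuc. FANCI had 2000 and 1130 in shIMPA1, 2925 and 3004 in shIMPDH2, and 3238 and 3734 in shLuc. Both fell in shIMPA1, FANCD2 by 1.26 (SE 0.25, limma adjusted p = 0.0039) and FANCI by 1.21 on the log2 scale (SE 0.21, limma adjusted p = 0.00181), with every shIMPA1 value below every shLuc value. The proteins form a clamp on DNA as a pair. The ratio of FANCD2 to FANCI in TPM was 0.421 and 0.361 in shIMPA1, 0.428 and 0.390 in shIMPDH2, and 0.413 and 0.394 in shLuc, so the groups overlapped in this ratio.

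Among the BRCA genes, BARD1, the obligate partner of BRCA1, changed most. It had 210 and 135 normalized reads in shIMPA1, 446 and 361 in shIMPDH2, and 414 and 419 in shLuc, with means of 172 ± 53.3 in shIMPA1 and 417 ± 3.63 in shLuc (SD, n = 2 each). The log2 fold change in shIMPA1 was -1.30 (SE 0.20, limma adjusted p = 0.00098). BRCA1 had 2631 and 1242 normalized reads in shIMPA1, 3216 and 3087 in shIMPDH2, and 3361 and 3405 in shLuc, and fell by 0.90 on the log2 scale (SE 0.26, limma adjusted p = 0.0213). The ratio of BRCA1 to BARD1 in TPM was 8.27 and 6.09 in shIMPA1, 4.76 and 5.65 in shIMPDH2, and 5.36 and 5.36 in shLuc. Both shIMPA1 ratios were above the other 4; with 2 libraries a group, the smallest p that a two-sided exact permutation test can give is 0.333, and none was run.

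BRCA2, which loads the recombinase, had 302 and 167 normalized reads in shIMPA1, 394 and 289 in shIMPDH2, and 394 and 403 in shLuc, a fall of 0.82 on the log2 scale in shIMPA1 (SE 0.25, limma adjusted p = 0.0275). The gene that bridges BRCA2 to BRCA1, PALB2, had 252 and 282 normalized reads in shIMPA1, 260 and 259 in shIMPDH2, and 261 and 316 in shLuc. Its groups overlapped, and its log2 fold change was -0.11 (SE 0.16, limma adjusted p = 0.645). BRIP1, a helicase that binds BRCA1 and is also the Fanconi gene FANCJ, fell by 1.01 (SE 0.20, limma adjusted p = 0.00418). The calls of BRCA1 and BRCA2 were lost without either shLuc library, and that of BRCA1 with DESeq2.

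The 5 paralogs of the recombinase went different ways. They form the complexes RAD51B-RAD51C-RAD51D-XRCC2 and RAD51C-XRCC3, which remodel recombinase filaments. XRCC2 had 841 and 474 normalized reads in shIMPA1, 1183 and 1035 in shIMPDH2, and 1816 and 1562 in shLuc. Its mean was 657 ± 260 in shIMPA1 and 1689 ± 180 in shLuc (SD, n = 2 each), a log2 fold change of -1.41 (SE 0.22, limma adjusted p = 0.000903). RAD51C had 1494 and 740 normalized reads in shIMPA1, 1681 and 1934 in shIMPDH2, and 2046 and 1729 in shLuc, and fell by 0.84 on the log2 scale (SE 0.25, limma adjusted p = 0.0277). XRCC3 had 943 and 413 in shIMPA1, 924 and 913 in shIMPDH2, and 1173 and 1130 in shLuc, and fell by 0.88 (SE 0.28, limma adjusted p = 0.0341). The calls of RAD51C and XRCC3 were lost with DESeq2 and without either shLuc or either shIMPDH2 library, and that of XRCC3 also without shIMPA1 replicate 2.

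RAD51D had 850 and 820 normalized reads in shIMPA1, 643 and 640 in shIMPDH2, and 712 and 716 in shLuc. Here both shIMPA1 libraries were the highest and both shIMPDH2 libraries the lowest, although neither difference from shLuc passed (shIMPA1 over shLuc 0.23, SE 0.12, limma adjusted p = 0.178). It was the single gene of the 32 with both shIMPA1 libraries above both shLuc libraries, as 33.7% of all genes tested had. RAD51B had 218 and 141 in shIMPA1, 178 and 186 in shIMPDH2, and 163 and 184 in shLuc. Its shIMPA1 libraries lay on either side of all the others, and the log2 fold change was 0.02 (SE 0.21, limma adjusted p = 0.959).

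The ratio of RAD51D to its partner XRCC2 in TPM was 0.434 and 0.743 in shIMPA1, 0.234 and 0.266 in shIMPDH2, and 0.168 and 0.197 in shLuc. The 3 groups did not overlap in this ratio, which was highest in shIMPA1 and lowest in shLuc. The ratio of RAD51C to its other partner XRCC3 was 1.96 and 2.22 in shIMPA1, 2.25 and 2.62 in shIMPDH2, and 2.16 and 1.89 in shLuc, and its shIMPA1 and shLuc values overlapped.

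**Figure D3:**
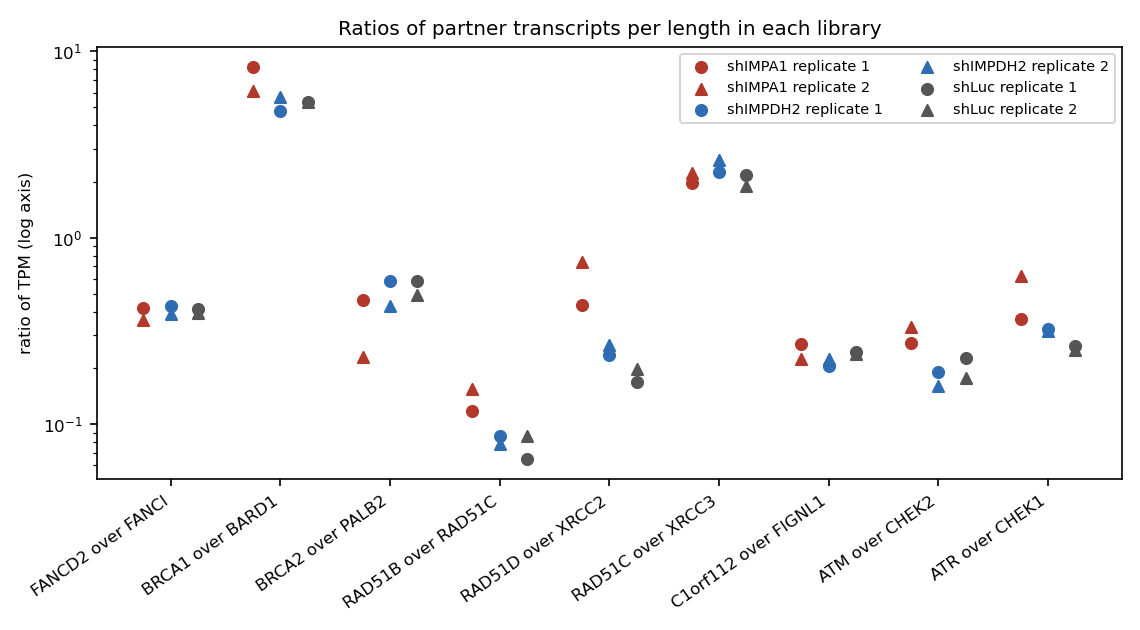
Ratios in TPM (log axis) of genes whose products act as pairs or as kinase pairs in signalling, in each library; circles are replicate 1 and triangles replicate 2, in red for shIMPA1, blue for shIMPDH2 and grey for shLuc. FANCD2 over FANCI stays between 0.361 and 0.428 in all 6 libraries, whereas RAD51D over XRCC2 runs to 0.743 in shIMPA1 and is at most 0.197 in shLuc.

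All 4 genes of filament motors and filament release fell. RAD54L, a motor that helps the filament find its partner strand, had 405 and 153 normalized reads in shIMPA1, 499 and 450 in shIMPDH2, and 648 and 707 in shLuc (log2 fold change in shIMPA1 -1.44, SE 0.33, limma adjusted p = 0.00748). RAD54B, its relative, fell by 1.16 on the log2 scale (SE 0.25, limma adjusted p = 0.00562). FIGNL1, an ATPase that takes the recombinase off DNA, had 1126 and 706 normalized reads in shIMPA1, 1913 and 2013 in shIMPDH2, and 2187 and 2204 in shLuc. Its log2 fold change of -1.30 had the smallest adjusted p of the 32 genes (SE 0.18, limma adjusted p = 0.000515).

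C1orf112, also called FIRRM, whose product works with FIGNL1, had 358 and 186 normalized reads in shIMPA1, 463 and 534 in shIMPDH2, and 627 and 620 in shLuc (log2 fold change in shIMPA1 -1.27, SE 0.24, limma adjusted p = 0.00291). The ratio of C1orf112 to FIGNL1 in TPM was 0.268 and 0.223 in shIMPA1, 0.204 and 0.224 in shIMPDH2, and 0.242 and 0.237 in shLuc. The shIMPA1 values lay on either side of the shLuc values. The call of RAD54L was lost with DESeq2 and without either shLuc library.

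Of the resection and dissolution genes, BLM, the helicase that takes joined chromatids apart without crossing over, had 322 and 160 normalized reads in shIMPA1, 557 and 570 in shIMPDH2, and 552 and 634 in shLuc (log2 fold change in shIMPA1 -1.38, SE 0.25, limma adjusted p = 0.00246). EXO1, a nuclease of long-range resection, had 679 and 318 in shIMPA1, 680 and 684 in shIMPDH2, and 871 and 1017 in shLuc, and fell by 1.02 (SE 0.27, limma adjusted p = 0.015). RBBP8, which encodes CtIP and starts resection, had 3892 and 2245 in shIMPA1, 3415 and 3613 in shIMPDH2, and 3603 and 3361 in shLuc. Its shIMPA1 libraries were the highest and the lowest of the 6, and its log2 fold change of -0.24 did not pass (SE 0.20, limma adjusted p = 0.413).

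The signalling genes divided between the apical kinases and the proteins downstream of or beside them. ATM, the kinase that responds to breaks, had 1189 and 956 normalized reads in shIMPA1, 972 and 868 in shIMPDH2, and 1119 and 967 in shLuc (log2 fold change in shIMPA1 0.04, SE 0.14, limma adjusted p = 0.875). ATR, the kinase of stalled forks, had 685 and 676 in shIMPA1, 807 and 788 in shIMPDH2, and 705 and 768 in shLuc (log2 fold change in shIMPA1 -0.11, SE 0.12, limma adjusted p = 0.515). CHEK1, the effector kinase of ATR, had 986 and 569 in shIMPA1, 1315 and 1317 in shIMPDH2, and 1419 and 1613 in shLuc, and fell by 1.01 in shIMPA1 (SE 0.21, limma adjusted p = 0.00431). TOPBP1, which activates ATR, had 1513 and 1104 in shIMPA1, 2391 and 2260 in shIMPDH2, and 1975 and 2196 in shLuc, and fell by 0.69 (SE 0.15, limma adjusted p = 0.00635).

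CHEK2, the effector kinase of ATM, fell by 0.54 on the log2 scale (SE 0.18, limma adjusted p = 0.0377), a call lost without shIMPA1 replicate 2 and without either shLuc or either shIMPDH2 library. The ratio of ATR to CHEK1 in TPM was 0.364 and 0.624 in shIMPA1, 0.322 and 0.314 in shIMPDH2, and 0.261 and 0.25 in shLuc. The ratio of ATM to CHEK2 in TPM was 0.271 and 0.330 in shIMPA1, 0.191 and 0.160 in shIMPDH2, and 0.226 and 0.177 in shLuc. Both ratios were higher in the shIMPA1 libraries than in the other 4.

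Promoter sequence was examined as a feature that the choice of genes did not use. RefSeq windows of GRCh38.p14, from 250 bases before to 50 bases after a transcript start, were found for 30 of the 32 genes, in 42 windows. The other 2 genes were FANCI and RAD54B. The E2F transcription factors drive genes of DNA replication, and 4 words of their known motif were searched on both strands, namely TTTCGCGC, TTTGGCGC, TTTCCCGC and TTTGCCGC. The shorter words TTTGAA, the cell cycle homology region (CHR), and CCAAT, the binding word of NF-Y, were searched in the same way; no word contains another.

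An E2F word was present in 6 of the 30 genes (20%) and in 6.47% of the 12296 tested genes with a window. By window the shares were 14.3% of the 42 windows and 3.31% of all 35116 windows. All 6 were among the 23 genes with a window that fell in shIMPA1, and 0 were among the 7 that were not called. The CHR word was present in 13.3% of the 30 genes and in 13.5% of tested genes, and CCAAT in 40% and 42.6%. A match is a description of these letters and not evidence of binding.

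The 6 windows with an E2F word are printed because they carry this difference, followed by FIGNL1, which fell without such a word, and RAD51D, which was not called. Each runs 5′ to 3′ on the strand of the gene, and capitals mark an E2F word or its reverse complement. The windows lie at chr1:241847954-241848253 on the plus strand for EXO1, chr16:89816598-89816897 on the minus strand for FANCA and chr9:95317660-95317959 on the minus strand for FANCC. That of FANCD2 is chr3:10026187-10026486 on the plus strand, that of TOPBP1 chr3:133661892-133662191 on the minus strand, and that of XRCC2 chr7:152676092-152676391 on the minus strand. Those without a word are chr7:50450301-50450600 for FIGNL1 and chr17:35119709-35120008 for RAD51D, both on the minus strand.
EXO1: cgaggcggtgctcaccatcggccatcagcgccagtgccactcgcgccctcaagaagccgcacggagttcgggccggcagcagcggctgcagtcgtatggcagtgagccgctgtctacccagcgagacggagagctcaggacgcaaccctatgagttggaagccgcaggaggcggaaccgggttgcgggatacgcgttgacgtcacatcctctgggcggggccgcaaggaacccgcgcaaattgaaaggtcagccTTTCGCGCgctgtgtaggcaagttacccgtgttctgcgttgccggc
FANCA: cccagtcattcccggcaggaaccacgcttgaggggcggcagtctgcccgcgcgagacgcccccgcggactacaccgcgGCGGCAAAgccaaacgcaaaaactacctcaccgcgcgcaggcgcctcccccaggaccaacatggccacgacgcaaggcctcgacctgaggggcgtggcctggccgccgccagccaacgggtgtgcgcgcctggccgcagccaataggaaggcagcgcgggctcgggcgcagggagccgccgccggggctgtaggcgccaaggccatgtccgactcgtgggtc
FANCC: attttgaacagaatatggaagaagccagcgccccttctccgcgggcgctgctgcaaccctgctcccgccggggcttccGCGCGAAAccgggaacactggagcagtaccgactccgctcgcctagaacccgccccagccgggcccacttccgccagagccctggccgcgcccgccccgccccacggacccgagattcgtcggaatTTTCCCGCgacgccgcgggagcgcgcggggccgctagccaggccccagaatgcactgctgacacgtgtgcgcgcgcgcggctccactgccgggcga
FANCD2: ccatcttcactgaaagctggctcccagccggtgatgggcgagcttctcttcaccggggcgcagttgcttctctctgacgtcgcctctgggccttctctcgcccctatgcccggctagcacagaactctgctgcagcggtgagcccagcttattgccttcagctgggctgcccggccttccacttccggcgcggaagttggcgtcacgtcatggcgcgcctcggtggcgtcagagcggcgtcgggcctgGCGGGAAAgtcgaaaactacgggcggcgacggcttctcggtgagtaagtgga
TOPBP1: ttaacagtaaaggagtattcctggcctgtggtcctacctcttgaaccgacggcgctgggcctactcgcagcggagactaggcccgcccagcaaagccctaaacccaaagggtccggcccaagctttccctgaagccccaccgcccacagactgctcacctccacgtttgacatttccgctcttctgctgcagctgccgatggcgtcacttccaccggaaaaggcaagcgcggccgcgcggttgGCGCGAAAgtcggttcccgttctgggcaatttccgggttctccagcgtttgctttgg
XRCC2: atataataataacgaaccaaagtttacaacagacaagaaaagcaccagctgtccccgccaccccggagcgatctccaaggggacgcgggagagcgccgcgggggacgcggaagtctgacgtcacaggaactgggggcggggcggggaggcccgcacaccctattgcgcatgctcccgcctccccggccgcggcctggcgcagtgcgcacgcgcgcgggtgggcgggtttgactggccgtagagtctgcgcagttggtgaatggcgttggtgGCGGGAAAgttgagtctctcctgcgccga
FIGNL1: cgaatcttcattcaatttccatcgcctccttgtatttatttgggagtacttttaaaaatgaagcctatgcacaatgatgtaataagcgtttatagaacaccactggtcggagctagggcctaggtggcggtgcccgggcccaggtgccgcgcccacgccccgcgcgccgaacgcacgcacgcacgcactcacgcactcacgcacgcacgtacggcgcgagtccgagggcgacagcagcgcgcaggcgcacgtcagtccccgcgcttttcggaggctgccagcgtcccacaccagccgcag
RAD51D: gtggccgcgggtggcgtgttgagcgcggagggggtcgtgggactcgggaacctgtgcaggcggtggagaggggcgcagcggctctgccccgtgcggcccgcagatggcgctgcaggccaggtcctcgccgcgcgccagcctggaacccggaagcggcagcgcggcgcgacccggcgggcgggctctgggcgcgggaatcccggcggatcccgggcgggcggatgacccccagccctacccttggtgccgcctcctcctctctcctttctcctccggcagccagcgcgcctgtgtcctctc

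Counted from the transcript start, the first base of the word was at position 5 in EXO1, 22 in XRCC2, -2 in FANCD2 and -7 in TOPBP1, so in these 4 genes it lay close to the start. In FANCA it was at -172, and FANCC held words at -172 and -46. The log2 fold changes in shIMPA1 of the genes with a word ran from -0.42 for FANCC to -1.41 for XRCC2, and 2 genes without a word, FIGNL1 and BARD1, each fell by 1.30.

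**Figure D4:**
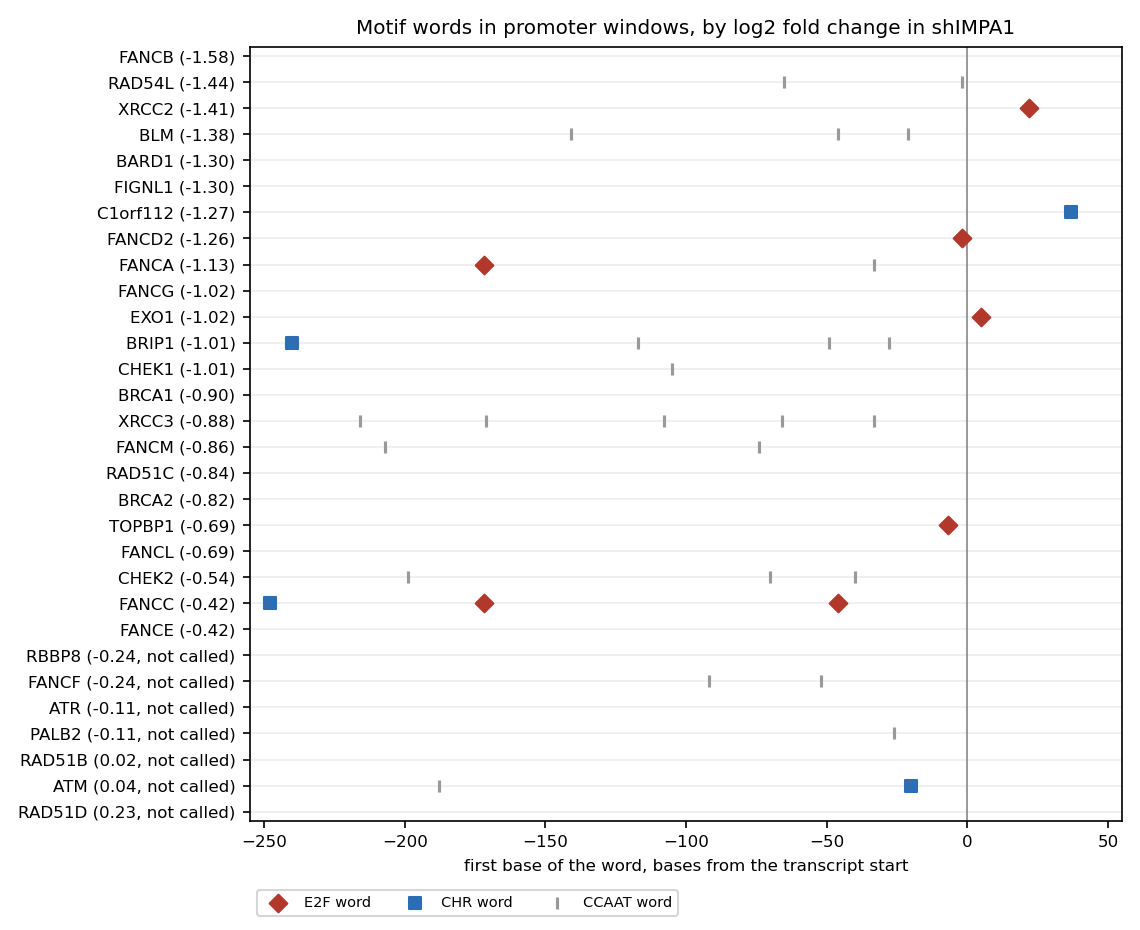
Positions of E2F words (red), CHR words (blue) and CCAAT words (grey) in 1 RefSeq window for each of the 30 genes, the window with an E2F word where a gene has several and otherwise the first; genes are ordered by log2 fold change in shIMPA1, given beside each name. The red points stand in 6 genes, all of which fell, and the rows of the 7 genes that were not called hold none.

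The shIMPDH2 cells differed much less from the controls. None of the 32 genes was called by limma in shIMPDH2 relative to shLuc, whereas 9.15% of all genes tested fell; 2 genes, XRCC2 and FANCG, had an unadjusted p under 0.05. edgeR called 0, beside falls in 9.09% of all genes tested, and DESeq2 called 1, XRCC2, beside 7.86%. The median log2 fold change was -0.17 over the 32 genes and -0.01 over all genes tested, and 26 of the 32 were negative. Both shIMPDH2 libraries lay below both shLuc libraries for 20 genes, and for 33.4% of all genes tested. This comparison and the one of shIMPA1 use the same shLuc libraries.

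The largest differences were in XRCC2, whose log2 fold change was -0.61 (SE 0.22, limma adjusted p = 0.081), FANCB at -0.54 (SE 0.34, limma adjusted p = 0.306), RAD54L at -0.51 (SE 0.33, limma adjusted p = 0.312), EXO1 at -0.46 (SE 0.27, limma adjusted p = 0.259), FANCA at -0.45 (SE 0.25, limma adjusted p = 0.243) and FANCG at -0.43 (SE 0.16, limma adjusted p = 0.0877). For XRCC2 the means were 1109 ± 105 in shIMPDH2 and 1689 ± 180 in shLuc (SD, n = 2 each). TOPBP1 and ATR were the 2 genes with both shIMPDH2 libraries above both shLuc libraries, which was so for 32.7% of all genes tested. A p that misses the threshold does not show that the groups were alike, and the count rested on the estimate of the spread that the shIMPA1 libraries share in. With only shIMPDH2 and shLuc fitted, 10 genes fell, which were BRIP1, C1orf112, EXO1, FANCA, FANCB, FANCG, RAD54B, RAD54L, XRCC2 and XRCC3; of all genes tested in that fit, 19.0% fell. The count was also 10 without shIMPA1 replicate 1, beside 18.7% of all genes tested, and without shIMPA1 replicate 2, beside 18.8%. With the replicate number as a block it was 1, beside 9.22%.

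The knockdowns were also compared with each other. Of the 32 genes, 19 were higher in shIMPDH2 than in shIMPA1, beside 13.5% of all genes tested, and 1 was lower, beside 12.6%. The median log2 fold change was 0.71 over the 32 genes, and both shIMPDH2 libraries lay above both shIMPA1 libraries for 25 of them and for 31.5% of all genes tested. The clearest were FIGNL1, with a mean of 1963 ± 70.8 in shIMPDH2 and 916 ± 297 in shIMPA1 (SD, n = 2 each; difference 1.14 on the log2 scale, SE 0.18, limma adjusted p = 0.00133), and BARD1, with a mean of 404 ± 60.0 in shIMPDH2 and 172 ± 53.3 in shIMPA1 (1.25, SE 0.20, limma adjusted p = 0.0015). TOPBP1 was 2325 ± 93.2 in shIMPDH2 and 1309 ± 289 in shIMPA1 (0.85, SE 0.15, limma adjusted p = 0.00257). These 3 kept their call in every fit without a library.

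The gene that was lower in shIMPDH2 than in shIMPA1 was RAD51D, at 642 ± 2.48 normalized reads in shIMPDH2 and 835 ± 21.4 in shIMPA1 (SD, n = 2 each; log2 fold change -0.38, SE 0.12, limma adjusted p = 0.0375). It was not called with DESeq2, with the replicate block, with only these 2 groups fitted, or without either shIMPDH2 or either shLuc library. The number of genes higher in shIMPDH2 was 27 without shIMPA1 replicate 1, beside 21.5% of all genes tested, and 13 without shIMPA1 replicate 2, beside 15.8%. It was 4 without shIMPDH2 replicate 1, beside 4.97%, and 3 without shIMPDH2 replicate 2, beside 3.39%. Without shLuc replicate 1 it was 12, beside 9.91%, and without shLuc replicate 2 again 12, beside 9.88%.

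Genes of the same pathways outside the 32 moved less uniformly. Of 32 other recombination genes, 17 fell and 1 rose in shIMPA1 (median log2 fold change -0.55), while 1 fell and 2 rose in shIMPDH2. Among all genes tested, 16.2% fell in shIMPA1 and 9.15% in shIMPDH2. RPA1, the large subunit of the protein that coats single-stranded DNA, had 1954 and 1816 normalized reads in shIMPA1, 4175 and 4387 in shIMPDH2, and 4133 and 4591 in shLuc (shIMPA1 over shLuc -1.21, SE 0.12, limma adjusted p = 4.96e-05). RAD50, of the complex that first binds broken ends, was the one that rose in shIMPA1, with 3147 and 3459 in shIMPA1, 3049 and 2931 in shIMPDH2, and 2189 and 2384 in shLuc. It also rose in shIMPDH2, by 0.39 on the log2 scale (SE 0.12, limma adjusted p = 0.0437).

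Of 16 other Fanconi and crosslink genes, which included further core complex subunits, 2 fell in shIMPA1 and 0 rose (median log2 fold change -0.05). The 2 were UBE2T, the ubiquitin-conjugating enzyme of the core complex (-1.71, SE 0.31, limma adjusted p = 0.00246), and RFWD3, a ubiquitin ligase (-0.64, SE 0.14, limma adjusted p = 0.0062). Of 20 other checkpoint and BRCA1-A complex genes, 11 fell in shIMPA1 and 0 rose (median -0.42), among them CLSPN, the adaptor between ATR and CHEK1 (-1.39, SE 0.27, limma adjusted p = 0.00327). Of 18 end-joining genes, 4 fell and 2 rose in shIMPA1 (median 0.01); of 18 nucleotide excision repair genes, 2 fell and 2 rose (median 0.09). Of 18 base excision repair genes, 5 fell and 2 rose in shIMPA1 (median -0.14), and of 7 mismatch repair genes 2 fell and 1 rose (median -0.07). Beside these lists, 2882 of all 17742 genes tested fell in shIMPA1 (16.2%) and 2479 rose.

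Most of the 32 genes fell in the same libraries as genes of the cell cycle. Of 34 S phase genes outside the 32, 32 fell in shIMPA1 (median log2 fold change -1.26), as did 26 of 30 mitosis genes (median -1.13; 13 with DESeq2), while 2 and 0 fell in shIMPDH2. Among all genes tested, 16.2% fell in shIMPA1 and 9.15% in shIMPDH2. With only shIMPDH2 and shLuc fitted, 16 of the S phase and 12 of the mitosis genes fell in shIMPDH2. In that fit 19.0% of all genes tested fell. S phase genes made up 0.337% and 0.221% of listed reads in shIMPA1, 0.475% and 0.471% in shIMPDH2, and 0.569% and 0.615% in shLuc. Library by library, the median log2 ratio to the shLuc mean was -0.48 and -1.36 for the 32 genes in shIMPA1, beside -0.84 and -1.62 for S phase and -0.47 and -1.72 for mitosis genes. The library that was lowest for the repair genes was thus also the lowest for both cell cycle lists. The part of the cell cycle lists in the fall of the repair genes was not tested.

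**Figure D5:**
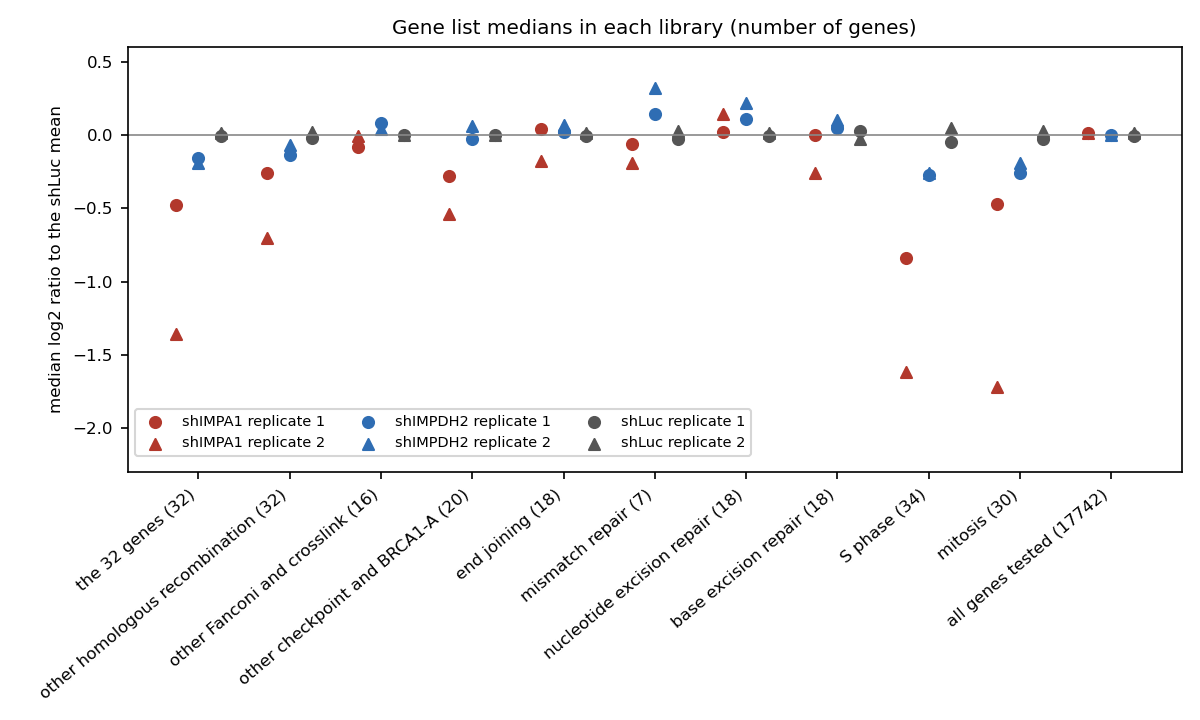
Median log2 ratio to the shLuc mean of the 32 genes and of 9 other gene lists and all genes tested, in each library, with the number of genes in brackets; circles are replicate 1 and triangles replicate 2, in red for shIMPA1, blue for shIMPDH2 and grey for shLuc. The 32 genes (-0.48 and -1.36 in shIMPA1), the S phase list and the mitosis list are low in shIMPA1, and the other Fanconi, end-joining and nucleotide excision lists stay between -0.18 and 0.22.

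Position and counting bear on a few values. The 32 genes lie on 16 chromosomes. By GENCODE release 29 on GRCh38, 13 share exon bases with another listed gene and 7 share over 10% of theirs. XRCC3 shares 76.7% with KLC1 on the opposite strand, RAD54B 59.1% with FSBP on the same strand, RAD54L 25.1% with LRRC41, FANCA 23.6% with ZNF276, C1orf112 21.7% with SCYL3, FANCL 18.7% with VRK2 and FANCF 11.3% with GAS2. Whether strand was used in counting is not given in the sources used here, and strand could not separate RAD54B from FSBP in any case. The values of these 7 genes are thus less certain than those of the rest.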

How the data were processed

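Poly(A) RNA was sequenced from 6 libraries, 2 in each of 3 groups, which were read from the labels. The submitters' processing notes name Trimmomatic 0.36, STAR 2.5.2b, Subread 1.5.2, featureCounts and DESeq2 with no version, and the build GRCh38. The deposited values are a signal: normalized read counts, which the authors had scaled by 1 factor for each library, as the values show. Undoing it, 99.98% to 100.0% of them became whole reads within 0.05 reads. The 3 deposited columns of the authors' own fold changes and p-values entered no test, since the header names no comparison. The plan named limma for normalized values and edgeR for raw counts. limma 3.58.1 (R 4.3.3), with a mean-variance trend, was fitted on log2(value + 1) over all 6 libraries with no replicate term, which left 3 residual degrees of freedom. It used the 17742 genes that reached a value of 10 in 2 or more libraries and left out 69. Benjamini-Hochberg adjusted p-values under 0.05 over all genes were called. Fold changes on the log2(value + 1) scale understate changes of genes with few reads. Alternatives were TMM scaling, a pseudocount of 8, no filter, no trend, 2 groups only, the replicate number as a block, edgeR 4.0.16 and DESeq2 1.42.0 on recovered reads, and leaving out each library. TPM were computed from the total length of all annotated exons of a gene in GENCODE release 29. Ranks between genes and the size of ratios in TPM thus depend on the annotation. All members could be named; of each other list, up to 4 genes with the smallest adjusted p in each comparison with shLuc. The members and lists were chosen with earlier results of these data known. Some genes within the rule are not reported here.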

Additional observations from a re-analysis of the deposited data

How the results depend on the processing

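For shIMPA1 against shLuc, 234 of 256 fold changes of the 32 genes kept direction and side of the threshold over the 8 settings other than leaving out a library, and 22 lost their call; for shIMPDH2 against shLuc 244 kept both and 12 gained a call, and between the knockdowns 219 kept both, 34 lost a call and 3 gained one. With no mean-variance trend, 12 members fell in shIMPA1 and 3508 genes of all were called, 1727 were called in shIMPDH2 and 2909 between the knockdowns, where 4 members were higher in shIMPDH2 and 0 lower; IMPA1 (-0.52, limma adjusted p = 0.0671) and IMPDH2 (-0.61, limma adjusted p = 0.0612) lost their calls. With only the 2 groups compared, 10 members fell in shIMPDH2 and 6382 genes were called, and between the knockdowns 12 were higher and 0 lower. The replicate block gave 25 falls in shIMPA1, 1 in shIMPDH2, and 22 higher and 0 lower between the knockdowns. Deviations of same-numbered libraries correlated at 0, 0.042 and -0.049 over 17742 genes. With 1 difference between libraries in each group, these values cannot tell whether same-numbered libraries share a culture or a batch. DESeq2 gave 1 fall in shIMPDH2 and 0 members lower between the knockdowns. The causes were not tested.

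Leaving out each library gave 11 to 27 falls in shIMPA1 (2147 to 7940 genes of all; median of members -1.36 to -0.48), 0 to 10 in shIMPDH2 (773 to 6386), and 3 to 27 higher and 0 to 2 lower members between the knockdowns (1430 to 7052; median 0.27 to 1.13). IMPA1 ran from -0.66 to -0.37 and IMPDH2 from -0.72 to -0.49. Signs changed for members near 0. In shIMPA1 these were ATM (-0.12 to 0.19), PALB2 (-0.24 to 0.031), RAD51B (-0.30 to 0.33) and RBBP8 (-0.63 to 0.16). In shIMPDH2 they were BARD1 (-0.21 to 0.098), BLM (-0.17 to 0.030), CHEK2 (-0.054 to 0.086), FANCC (-0.063 to 0.088), FANCF (-0.10 to 0.061), FANCM (-0.18 to 0.0063), RAD51B (-0.016 to 0.16), RAD51C (-0.18 to 0.061) and RBBP8 (-0.037 to 0.063). Between the knockdowns they were PALB2 (-0.12 to 0.040), RAD51B (-0.26 to 0.37), RBBP8 (-0.15 to 0.65) and XRCC3 (-0.038 to 1.15). A group with 1 library left is assumed to vary like the others. The lowest depth behind a member was 52 reads, for FANCB in shIMPA1 replicate 2, and 2 libraries a group limit every test.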

Other observations

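Repair genes outside the 32 held some that changed alike in both knockdowns and others that did not. UNG, which removes uracil from DNA, had 2358 and 2372 normalized reads in shIMPA1, 2798 and 2813 in shIMPDH2, and 4994 and 5624 in shLuc, and it fell in both (log2 fold change -1.16 in shIMPA1, limma adjusted p = 5.78e-05, and -0.92 in shIMPDH2, limma adjusted p = 0.000462; SE 0.12 each). TDG, which removes mispaired thymine, had 3149 and 3960 in shIMPA1, 3665 and 4051 in shIMPDH2, and 1989 and 1923 in shLuc, and rose in both (0.85 and 0.98, SE 0.13 each, limma adjusted p = 0.00103 and 0.000766). CETN2, a subunit of the damage sensor of nucleotide excision repair, had 591 and 558 in shIMPA1, 1255 and 1410 in shIMPDH2, and 831 and 837 in shLuc. It fell in shIMPA1 (-0.54, SE 0.12, limma adjusted p = 0.00772), rose in shIMPDH2 (0.67, SE 0.12, limma adjusted p = 0.00404) and was higher in shIMPDH2 than in shIMPA1 (1.21, SE 0.12, limma adjusted p = 7.67e-05). RMI2, a subunit of the complex that works with BLM, was lower than in shLuc in both (-0.99 in shIMPA1, limma adjusted p = 0.00467, and -1.03 in shIMPDH2, limma adjusted p = 0.0065; SE 0.20 each). Both comparisons use the same shLuc libraries.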
